A study of Mus musculus with 8 samples.

Results

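Enteric glia are the non-neuronal cells of the nervous system of the gut. Described here in the mouse colon are 4 genes taken as markers of these cells (GFAP, S100BETA, SOX10 and P75) and 3 neurotrophic or guidance factors (GDNF, BDNF and SEMAPHORIN). These 7 genes were chosen by their names from the 68 target genes of a custom NanoString nCounter panel, a method that hybridizes a fluorescent barcode to each RNA and counts the barcodes with no amplification step. The high salt group were specific pathogen-free C57BL/6 mice, 7 to 10 weeks old, fed for 1 week the control diet with 4% NaCl added. The control group were mice of the same strain and age on the unsupplemented diet. By the sample labels each diet had 10 mice, 5 males and 5 females, while the paper's figure legend for these data gives 4 mice per group. RNA of whole colon was measured in 4 pools per diet, 2 of each sex. Mice 1, 2 and 3 of a sex made up 1 pool and mice 4 and 5 the other. Pooling averages over mice, and the error bars and p-values below therefore describe pools of 2 or 3 mice, not single mice.

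Enteric glia arise from the neural crest and surround the neurons of the myenteric and submucosal plexuses, and they also lie in the mucosa. They take part in the upkeep of enteric neurons, in motility reflexes and in the response of the gut wall to injury. GFAP is an intermediate filament of glia, S100B a calcium-binding protein of glia, and SOX10 a transcription factor that neural crest cells and the glia derived from them need. GDNF is a secreted ligand that guides and sustains enteric neurons and their precursors through the receptor RET. BDNF is a neurotrophin that signals through the receptor TrkB, and semaphorins are guidance cues for growing axons. In the RefSeq table for GRCm38.p6, 4 of the 7 names (GFAP, SOX10, GDNF and BDNF) each matched 1 gene symbol. P75 is listed there as a synonym of both Ngfr, a receptor for neurotrophins on glia and neural crest cells, and Tnfrsf1b, a receptor for tumour necrosis factor, so its gene is not settled by the name. Where P75 is counted with the glial markers below, its probe is taken to read Ngfr. S100BETA matched no name in the table, and SEMAPHORIN does not say which semaphorin was probed.

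The 7 genes were read from few counts. Of 4 epithelial markers that check the labelled tissue, all were above the floor in every pool, with summed signals of 43305 to 71538 in high salt pools and 27804 to 87915 in control pools. The pools of male mice 1, 2 and 3 stood apart from the rest of their diets in 2 of these markers. Muc2, the main mucin of the colon, had 21934 on the high salt diet (26688 to 53516 in the other pools of that diet) and 62763 on the control diet (3373 to 10865 in the other pools of that diet). I-FABP, an epithelial fatty acid-binding protein, had 1175 on the high salt diet (2835 to 4297 in the others) and 2873 on the control diet (316 to 574 in the others). In Tff3 both of these pools lay within the range of the others (15128 on the high salt and 18073 on the control diet). In Cdh1 the control pool did (4206), and the high salt pool was higher (5068 against 3800 to 3882). Whether the diet labels of this pair of pools are right was not tested, so the diet differences of the 7 genes are also given below without them. Those of the neuronal markers and those within each sex are given with these pools only. Deposited values are a normalized signal in which low readings were replaced by a floor. This floor was, in each pool, the geometric mean over its 6 negative control probes. The floor was 1.59 to 6.51 in high salt pools and 1.59 to 3.66 in control pools. Of the 7 genes, 5 (GFAP, SOX10, P75, GDNF and SEMAPHORIN) lay above the floor in all 8 pools, as did 47 of the 68 target genes. Of their 56 values, 5 were at the floor. Values above the floor were whole multiples of a fixed step in each pool, which gives the barcode counts behind them. Recovered totals over all genes were 26893 to 169300 counts in high salt pools and 13574 to 74270 in control pools. The shallowest pool of each diet was that of female mice 1, 2 and 3, where 1 count stood for a signal of 3.10 on the high salt diet and 3.85 on the control diet, against 0.409 to 1.44 in the other pools. GFAP rested on 14 to 65 counts, P75 on 15 to 63, SOX10 on 10 to 45, SEMAPHORIN on 11 to 92 and GDNF on 5 to 50. Counts of 5 to 10 have wide intervals. The 5 counts of GDNF in male mice 4 and 5 on the control diet had a 95% exact Poisson interval of 1.62 to 11.7, and the highest negative control of that pool had 7 counts.

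**Figure D1:**
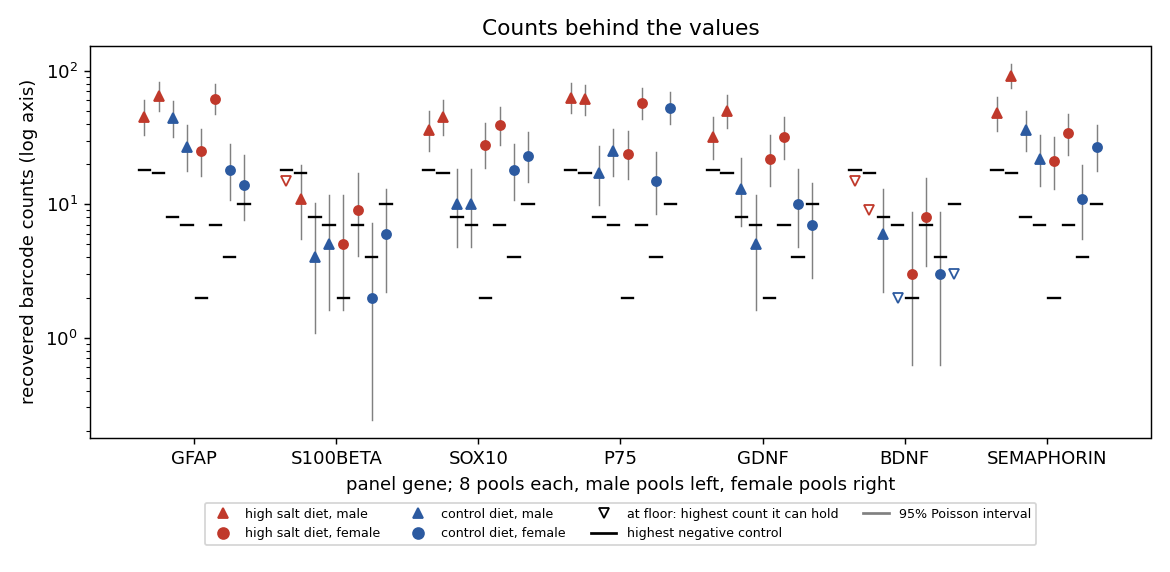
Recovered barcode counts (log axis) of the 7 genes in each of the 8 pools, with 95% exact Poisson intervals as grey lines and the highest negative control probe of the pool as a black bar. GFAP, SOX10, P75 and SEMAPHORIN were above the bar in every pool, GDNF was in 6 of 8, and S100BETA and BDNF were above it only in the female high salt pools.

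GFAP, the filament marker of glia, varied 5.16-fold between its lowest and highest pool and did not separate the diets. In what follows each pair of values gives the pool of mice 1, 2 and 3 and then the pool of mice 4 and 5. GFAP had a signal of 18.4 and 35.1 in male and 77.6 and 72.0 in female high salt pools, against 63.3 and 28.1 in male and 69.4 and 15.03 in female control pools. The lowest value of each diet thus lay below most values of the other diet, in a male pool on the high salt diet and in a female pool on the control diet. GFAP averaged 50.8 ± 28.7 on the high salt diet and 44.0 ± 26.5 on the control diet (SD, n = 4 pools each). The log2 difference, high salt minus control, was 0.23 (standard error 0.596, 95% interval -1.09 to 1.56), with an adjusted p of 0.937 in limma and an exact permutation p of 0.686 over the 70 assignments of the pools. It turned to -0.18 when the pool of control-diet females 4 and 5 was left out. RNA of whole tissue was measured, so fewer cells of a type and less RNA per cell cannot be told apart here.

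SOX10, the transcription factor of glia, spread 8.34-fold over the pools. It had a signal of 14.7 and 24.3 in male and 86.9 and 45.3 in female high salt pools, against 14.4 and 10.4 in male and 69.4 and 24.7 in female control pools. Each diet had its highest values in female pools, and the diets overlapped. SOX10 averaged 42.8 ± 32.0 on the high salt diet and 29.7 ± 27.1 on the control diet (SD, n = 4 pools each). The log2 difference of 0.59 (standard error 0.662, 95% interval -0.88 to 2.06) was smaller than the spread between pools (limma adjusted p = 0.912, exact permutation p = 0.457). Leaving out single pools, it ran between 0.15, without the pool of high salt females 1, 2 and 3, and 1.11, without the control-diet pool of the same numbers and sex.

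P75, the receptor of the list, had similar levels in the 4 pools of a sex. Its signal was 25.8 and 33.0 in male and 74.5 and 66.2 in female high salt pools, against 24.5 and 26.1 in male and 57.8 and 56.9 in female control pools. The ranges of the diets overlapped, and the gap between the sexes was larger than that between the diets. P75 averaged 49.9 ± 24.1 on the high salt diet and 41.3 ± 18.6 on the control diet (SD, n = 4 pools each), a log2 difference of 0.24 (standard error 0.467, limma adjusted p = 0.912, exact permutation p = 0.543). With single pools left out it ran between 0.01, without the pool of high salt females 1, 2 and 3, and 0.51, without the pool of high salt males 1, 2 and 3.

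S100BETA, the calcium-binding marker, was near background. It had a signal of 6.51, which is the floor, and 5.94 in male and 15.5 and 10.5 in female high salt pools, against 5.75 and 5.21 in male and 7.71 and 6.44 in female control pools. These values stand for 2 to 11 counts where it was above the floor. It exceeded the highest negative control only in the female high salt pools, with 5 counts against 2 in the pool of mice 1, 2 and 3 and with 9 counts against 7 in that of mice 4 and 5. The log2 difference between diets was 0.47 (standard error 0.361, limma adjusted p = 0.806, exact permutation p = 0.2).

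GDNF, the ligand of RET, had the highest difference between diets of the 7 genes and also the widest spread, 13.1-fold from lowest to highest pool. Its signal was 13.1 and 27.0 in male and 68.3 and 37.2 in female high salt pools, against 18.7 and 5.21 in male and 38.5 and 7.52 in female control pools. The lowest high salt pool lay below the highest pools of the control diet, so the diets overlapped. Its lowest values, in the control pools of mice 4 and 5, stood for 5 counts in males and 7 in females, where the highest negative control had 7 and 10. GDNF averaged 36.4 ± 23.4 on the high salt diet and 17.5 ± 15.2 on the control diet (SD, n = 4 pools each). The log2 difference was 1.17 (standard error 0.649, 95% interval -0.28 to 2.61), which ranked 9 of the 68 target genes by p and did not pass the test (limma adjusted p = 0.628, exact permutation p = 0.2). With single pools left out it ran between 0.77, without the pool of control-diet males 4 and 5, and 1.66, without that of female mice 1, 2 and 3. The adjusted p was 0.257 to 0.967 over 24 alternatives.

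SEMAPHORIN had a signal of 19.7 and 49.7 in male and 65.2 and 39.5 in female high salt pools, against 51.8 and 22.9 in male and 42.4 and 29.0 in female control pools. The highest and the lowest pool were both on the high salt diet. It averaged 43.5 ± 19.1 on the high salt diet and 36.5 ± 13 on the control diet (SD, n = 4 pools each), a log2 difference of 0.19 (standard error 0.434, limma adjusted p = 0.925, exact permutation p = 0.657), and of -0.04 without the pool of high salt females 1, 2 and 3.

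BDNF, the ligand of TrkB, was at the floor in 2 pools of each diet. It was listed at the floors of 6.51 and 5.11 in male high salt pools and measured at 9.31 and 9.29 in female high salt pools. In control pools it was 8.63 in male mice 1, 2 and 3 and 11.6 in female mice 1, 2 and 3, and at the floors of 2.74 and 3.66 in the pools of male and female mice 4 and 5. It exceeded the highest negative control in the female high salt pools alone, with 3 counts against 2 and 8 counts against 7. A difference between diets was not detectable over the floors and the negative controls of these pools. Fitted with floors as values, the log2 difference was 0.30 (standard error 0.442, limma adjusted p = 0.912, exact permutation p = 0.486), and it was -0.05 when all pools were given the highest floor.

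**Figure D2:**
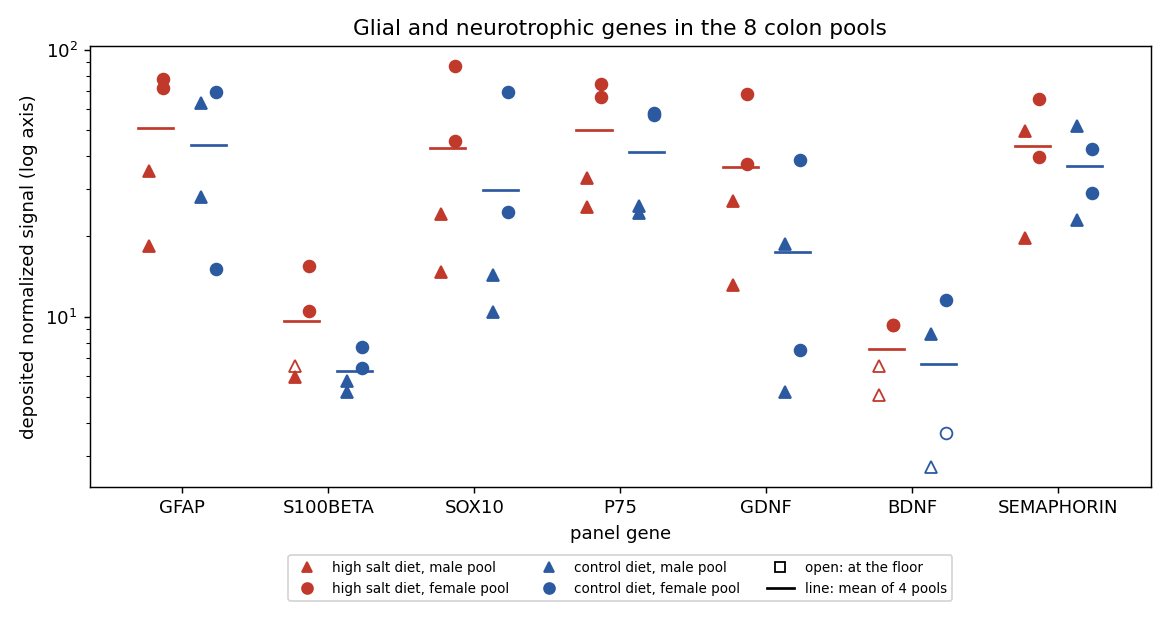
Deposited normalized signal (log axis) of the 7 genes, with high salt pools in red and control pools in blue, male pools as triangles, female pools as circles, values at the floor as open symbols and the mean of 4 pools, floors included, as a line. Circles lie above triangles on both diets for SOX10 and P75, and the diets overlap in every gene.

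None of the 7 genes passed an adjusted p of 0.05 for diet in limma, where 0% of the 68 target genes did. None had an unadjusted p under 0.05, against 3 of the 68. The pools of the diets overlapped in all 7, while 1.47% of the target genes had every high salt pool above every control pool. All 7 log2 differences were positive, with a median of 0.30, beside 44 positive of 68 and a median of 0.18 over all target genes. The glial markers averaged 0.38 and the factors 0.55 on the log2 scale. With single pools left out these means were 0.09 to 0.68 and 0.26 to 0.85. The lowest glial mean was without the pool of high salt females 1, 2 and 3 and the highest without the pool of high salt males 1, 2 and 3, and the factors were lowest without the pool of control-diet males 4 and 5 and highest without that of females 1, 2 and 3. A positive sign in all 7 is not 7 separate observations, since the genes were read in the same pools. With both pools of male mice 1, 2 and 3 left out, a choice made once the values were known, the differences were 0.89 for GFAP, 0.57 for S100BETA, 0.77 for SOX10, 0.30 for P75, 1.72 for GDNF, 0.52 for BDNF and 0.71 for SEMAPHORIN. None of the 7 genes passed the adjusted threshold without them either (limma adjusted p = 0.257 to 0.872). Without these pools the glial markers averaged 0.63 and the factors 0.98.

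Neurons, which glia surround, were read from 9 markers of the same panel. None of the 9 passed the test for diet, 5 had a positive and 4 a negative log2 difference, and their median was 0.23. PGP9.5, a general marker of neurons, reached only the floor in 4 pools and had a log2 difference of -0.32 (standard error 0.593). The highest of the list was CGRP, a peptide of sensory neurons, at 0.81 (standard error 0.414, limma adjusted p = 0.628), but it was above the floor in a single pool. The lowest was NPY, a neuropeptide, at -0.88 (standard error 0.625, limma adjusted p = 0.806). NPY was at the floor in 3 of 4 high salt pools and 1 of 4 control pools, and stood on 2 counts in the remaining high salt pool.

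The gap between the sexes was clearest in SOX10 and in P75, whose gene the name does not settle. P75 averaged 27.3 ± 3.82 in male and 63.9 ± 8.23 in female pools (SD, n = 4 pools each). The highest male pool had 33.0 and the lowest female pool 56.9, so the sexes did not overlap. With diet in the model the log2 difference, male minus female, was -1.20 (standard error 0.243, 95% interval -1.75 to -0.64), the smallest p of the 68 genes (unadjusted p = 0.00104 in limma). It did not pass after adjustment (adjusted p = 0.0711), and the exact permutation p of 0.0286 is the smallest that 4 pools against 4 allow.

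SOX10 averaged 16.0 ± 5.90 in male and 56.6 ± 27.2 in female pools (SD, n = 4 pools each). Its sexes were separated only narrowly, by 24.3 in the highest male pool and 24.7 in the lowest female pool. The log2 difference was -1.68 (standard error 0.404, 95% interval -2.61 to -0.75, limma unadjusted p = 0.00298, adjusted p = 0.101, exact permutation p = 0.0286), the second smallest p of the panel.

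The other 5 genes overlapped between the sexes. Their log2 differences, male minus female, were -0.62 for S100BETA (standard error 0.276), -1.05 for GDNF (standard error 0.592), -0.58 for GFAP (standard error 0.602), -0.48 for BDNF (standard error 0.421) and -0.35 for SEMAPHORIN (standard error 0.425). Limma's adjusted p was 0.298 to 0.686 and the exact permutation p 0.0571 to 0.400. All 7 genes thus had a lower mean log2 value in males, with a median of -0.62, beside 43 negative of 68 and a median of -0.32 over all target genes. At an adjusted p of 0.05, 0% of target genes passed. At an unadjusted p under 0.05, 2 of the 7 genes and 13.2% of the 68 passed, and 2 of the 7 and 10.3% of the 68 had every male pool below every female pool. Those 7 target genes without overlap, all lower in males, were P75, SOX10, Cnlp, GABAB, NR2D, Tff3 and VIP.

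The sex differences of P75 and SOX10 passed the threshold in a minority of settings. The adjusted p in limma was 0.00291 to 0.436 for P75 and 0.0319 to 0.456 for SOX10 over 22 alternatives. P75 passed in 6 of these and SOX10 in 2, and all were chosen once the values were known. P75 passed, among others, when all pools were given the highest floor (0.00291) and in voom on the counts recovered for genes never at the floor (0.0453). SOX10 passed with each pool centred on its median (-1.83, adjusted p = 0.0319), and both passed without the pool of control-diet females 4 and 5 (adjusted p = 0.0322 for each). Without both pools of female mice 1, 2 and 3, which held the fewest counts, the log2 difference was -1.15 for P75, -1.08 for SOX10, -0.28 for GDNF and -0.02 for GFAP. The 9 neuronal markers had a median log2 difference of -0.79 between the sexes, of which 5 were negative and 4 positive, and none passed an adjusted p of 0.05. CHAT had -0.91, VIP -0.90, SUBP -0.83, NPY -0.81 and NOS -0.79, while PGP9.5 had 1.24, CALRET 0.65, CALB 0.51 and CGRP 0.15. CALB and CGRP were at the floor in 7 of 8 pools, and PGP9.5 and NPY in 4 of 8. Of the 5 neuronal markers never at the floor, CHAT, VIP, SUBP and NOS were lower in males and CALRET was higher. The sums of the 9 neuronal markers were 2370 to 2933 in male and 1544 to 3150 in female pools, of which CALRET alone averaged 1966 in male and 1360 in female pools. The sums of 4 myeloid markers were 52.0 to 74.8 in male and 60.1 to 200.4 in female pools. The part of cell composition and of depth in the sex differences was not tested.

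**Figure D3:**
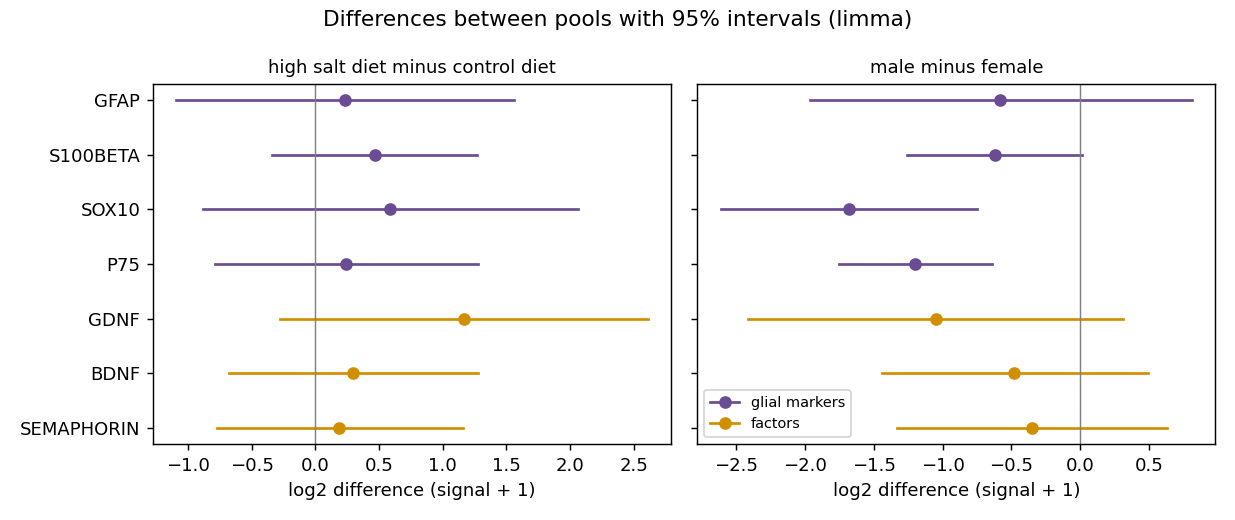
Log2 differences of the 7 genes with 95% intervals from limma (points and lines), high salt minus control diet on the left and male minus female on the right, glial markers in purple and factors in orange. All diet intervals include 0, and of the sex intervals those of SOX10 and P75 lie wholly below 0.

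Of the 7 genes, GFAP had the diet differences that lay farthest apart between the sexes. The log2 difference, high salt minus control, was -0.71 in males and 1.17 in females. In males it was negative through the pools of mice 1, 2 and 3 (18.4 on the high salt and 63.3 on the control diet). Whether the diet labels of these pools are right was not tested. The male pools of mice 4 and 5 had 35.1 on the high salt and 28.1 on the control diet. In males the diets overlapped. In females both high salt pools lay above both control pools, as they also did in S100BETA and P75. The nearest GFAP values were 72.0 on the high salt and 69.4 on the control diet, the latter from 18 counts. How many of the 68 target genes were separated in females was not counted. The difference of the differences, male minus female, was -1.88 (standard error 1.06, 95% interval -4.32 to 0.55), and did not pass (limma adjusted p = 0.709). Without the pool of control-diet females 4 and 5, where GFAP was 15.03, it was -0.81, and -2.95 without that of female mice 1, 2 and 3. SOX10 differed between diets by 0.59 in both sexes, and GDNF by 0.85 in males and 1.49 in females. Of the 68 target genes 0% passed the interaction term at an adjusted p of 0.05, and none of the 7 genes had an unadjusted p under 0.05 against 6 of the 68.

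The genes that were never at the floor varied between pools of the same diet. On the log2 scale the SD over 8 pools was 1.19 for GDNF, 1.08 for SOX10 and 0.92 for GFAP, which ranked 5, 7 and 11 of the 47 genes above the floor, whose median SD was 0.64. P75 had 0.66 and SEMAPHORIN 0.59. The female high salt pool of mice 1, 2 and 3 was the highest in all 5. The lowest pool was a control pool in SOX10, P75, GDNF and GFAP, and the pool of high salt males 1, 2 and 3 in SEMAPHORIN.

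**Figure D4:**
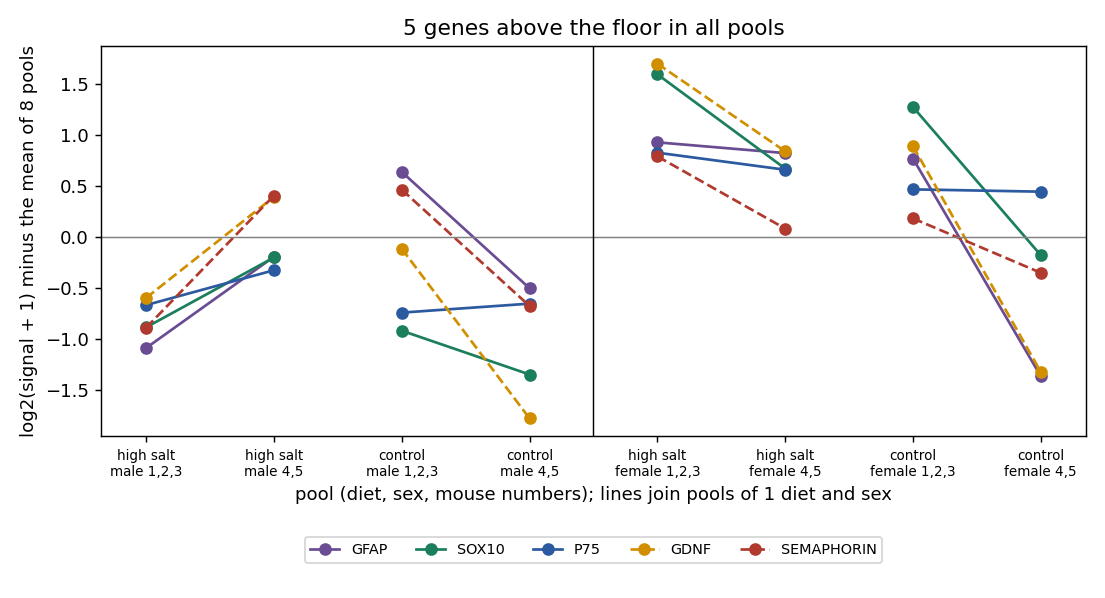
Log2 of signal plus 1 of the 5 genes that were never at the floor, each minus its mean over 8 pools, by pool, with male pools on the left and female pools on the right. Lines join the pools of 1 diet and sex, and all genes but P75 move in the same direction within every such pair of pools.

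Correlations over the 8 pools were computed for 10 pairs of these 5 genes, with exact permutation p over all pairings of the pools. GDNF and GFAP had a Pearson r of 0.81 (exact p = 0.0187, adjusted p = 0.0525) and a Spearman rho of 0.88 (exact p = 0.00724, adjusted p = 0.0362). Its r was again 0.81 without the 2 pools farthest from the median of GFAP, and 0.71 without both pools of female mice 1, 2 and 3. With each pool centred on its median, the r of GDNF and GFAP was 0.69. GDNF and SOX10 had an r of 0.85 (exact p = 0.0101, adjusted p = 0.0503) and a rho of 0.83 (exact p = 0.0154, adjusted p = 0.0513), with an r of 0.70 without the 2 farthest pools. GFAP and SOX10, both markers of glia, had an r of 0.63 (exact p = 0.103, adjusted p = 0.147) and a rho of 0.62 (exact p = 0.115, adjusted p = 0.144). Their r was 0.75 without the 2 farthest pools and 0.34 without both pools of female mice 1, 2 and 3. With each pool centred on its median, the r of SOX10 was 0.81 with GDNF and 0.58 with GFAP. Only the rho of GDNF with GFAP passed an adjusted p of 0.05 among the pairs given here, and none of their Pearson r did. The p-values of the correlations take no account of sex, and all 5 genes had a lower mean log2 value in males. SOX10 did not overlap between the sexes, if only narrowly. The part of sex in the correlations was not tested.

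SEMAPHORIN did not pass the adjusted threshold with GDNF (r = 0.80, exact p = 0.0210, adjusted p = 0.0525; rho = 0.71, exact p = 0.0576, adjusted p = 0.115) or with GFAP (r = 0.78, exact p = 0.0283, adjusted p = 0.0566; rho = 0.71, exact p = 0.0576, adjusted p = 0.115). Without the 2 farthest pools these r were 0.60 and 0.66. With SOX10 its r was 0.63 (exact p = 0.0969, adjusted p = 0.147) and its rho 0.45 (exact p = 0.267, adjusted p = 0.297). That r was 0.42 without the 2 farthest pools and 0.64 with each pool centred on its median. The 4 pairs with P75 are not given as a correlation, because P75 fell into separate clusters by sex and 4 pools in a cluster are too few.

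**Figure D5:**
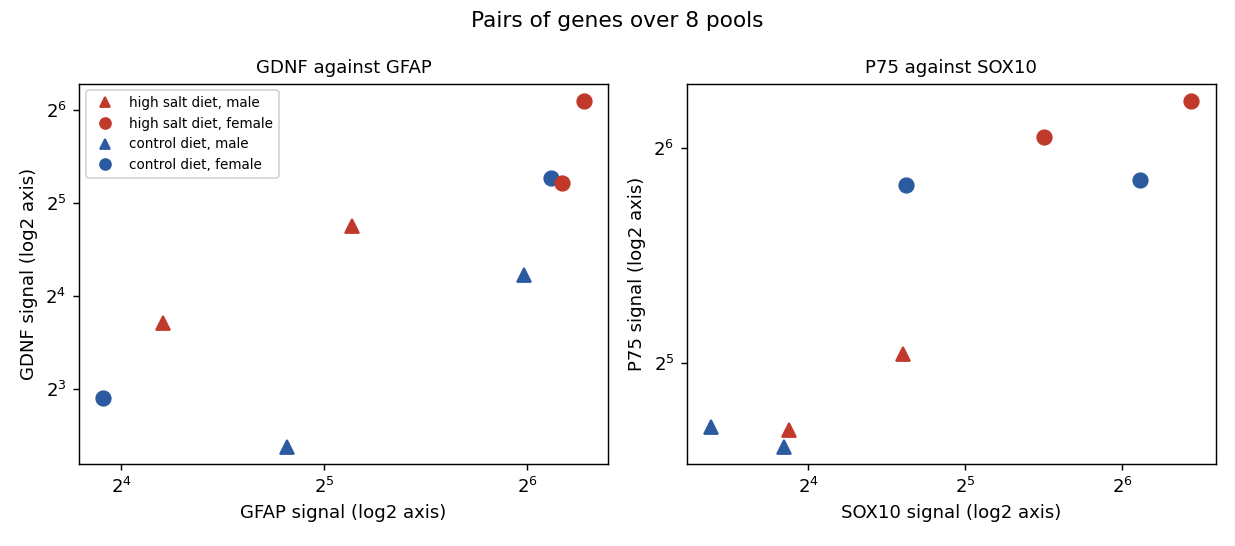
Normalized signal (log2 axes) of GDNF against GFAP on the left and of P75 against SOX10 on the right, 1 point per pool, red for the high salt and blue for the control diet, triangles for male and circles for female pools. GDNF and GFAP were high in the same female pools (r = 0.81, n = 8), while P75 forms separate groups of male pools up to 33.0 and female pools from 56.9.

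Depth moved with the same genes. The log2 of the signal that 1 count stood for, which is high in shallow pools, had an r of 0.69 with GFAP (exact permutation p = 0.0587, adjusted p = 0.147; rho = 0.71), 0.71 with SOX10 (exact permutation p = 0.0473, adjusted p = 0.147; rho = 0.62) and 0.52 with GDNF (exact permutation p = 0.187, adjusted p = 0.187; rho = 0.67). Without the 2 pools farthest from the median depth these r were 0.49, 0.11 and -0.07, so for SOX10 and GDNF the relation rests on those pools. Over the other 42 genes above the floor the median r with depth was 0.33, and 15 of the 42 were at or above 0.5. The part of depth in the correlations among the genes was not tested.

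The genes most like the glial markers were named by Pearson r with the mean log2 signal of GFAP and SOX10 over the 8 pools. They were MMP9, a matrix protease (r = 0.98), NOS, a nitric oxide synthase whose isoform the panel does not name (r = 0.95), and CHAT, the acetylcholine-synthesizing enzyme of cholinergic neurons (r = 0.93). GDNF came next at 0.92. Of the other genes of the list, SEMAPHORIN ranked 12 (r = 0.78) and P75 ranked 14, behind several genes that are neither glial nor neuronal markers. Without both pools of female mice 1, 2 and 3 the r of MMP9, NOS and CHAT were 0.99, 0.95 and 0.88. Their r with depth were 0.79, 0.71 and 0.88, and all of these values share the same 8 libraries. MMP9 was a low gene, with a mean log2 of signal plus 1 of 3.28 in male and 4.39 in female pools. GDNF had 3.89 and 4.94, and S100BETA, which was near background, 2.77 and 3.40.

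Since GDNF and GFAP were the pair with the highest rho among those given, the sequences before their annotated starts are shown, from RefSeq with GRCm38.p6 as the build. The Gfap window is chr11:102897201-102897450 on the minus strand and the Gdnf window, the first of 2 in the table, is chr15:7809798-7810047 on the plus strand. Each runs 5′ to 3′ and holds the 250 bases that end at the base before the gene's start.
Gfap: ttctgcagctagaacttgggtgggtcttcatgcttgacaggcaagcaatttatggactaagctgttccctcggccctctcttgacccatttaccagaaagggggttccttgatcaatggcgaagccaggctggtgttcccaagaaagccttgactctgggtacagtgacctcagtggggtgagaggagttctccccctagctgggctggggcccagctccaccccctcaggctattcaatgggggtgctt
Gdnf: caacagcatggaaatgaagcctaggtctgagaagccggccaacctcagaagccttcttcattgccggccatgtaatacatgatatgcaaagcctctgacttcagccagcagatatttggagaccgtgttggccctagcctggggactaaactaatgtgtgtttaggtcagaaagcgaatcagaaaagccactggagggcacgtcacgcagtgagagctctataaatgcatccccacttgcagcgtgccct
ACAAAG and ACAATG, letters at the core of sites bound by SOX proteins such as SOX10, were searched on both strands and would be in capitals. Neither overlaps another motif searched. Neither occurs in the Gfap window or in the 2 Gdnf windows, nor in the window of Ngfr, which is 1 of the 2 genes that P75 can stand for. ACAAAG occurs in 1 of 7 windows of Bdnf. Other spellings of the core were not searched, such as TCAATG, whose letters can be read in the printed Gfap window. Of 32851 windows of the same length, 16.5% hold ACAAAG, 10.7% hold ACAATG and 25.2% hold either, and an absent match says only that these letters are not in this window.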

How the data were processed

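RNA of whole colon was measured in 8 pools, 4 per diet, and the labels gave each pool its diet, sex and mice. The authors made the deposited signal in nSolver 4.0. It holds normalized values of 71 genes and unscaled counts of 12 control probes. For its background and normalization the settings were not given in the sources used here. Gapdh, Gusb and Pgk1 had an equal geometric mean in all pools. A step per pool recovered counts within a tolerance of 0.006 for all 487 values above the floor (100%), while for 81 values at the floor the count has only an upper bound. Intervals on counts cover counting error only. The floor is not scaled with the genes.

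The 68 target genes were tested with limma 3.58.1 in R 4.3.3 on log2 of the signal plus 1, which understates the change of low genes, with Benjamini-Hochberg adjustment over the 68. The diet fit had no covariate, the sex fit had diet, and an interaction term tested diet by sex. Permutation tests were two-sided and exact. No count model served as the main test because the values are normalized. The limma fit was tested on simulated data. Alternatives were other pseudocounts, centring, other reference genes, floors and filters, sex, mouse numbers or a block as terms, weights by mice, a variance trend, voom, and leaving out pools. Those for sex and interaction, background subtraction, mouse numbers and leaving out a pair of pools were chosen after seeing the data. The text names the 7 genes, the 3 others most like GFAP and SOX10 among genes above the floor, and of 9 neuronal markers PGP9.5 and those with the highest and lowest difference. The genes and lists were chosen with earlier results of these data known. Permutation tests and tables were made with pandas 2.3.3 and scipy 1.17.1 in Python 3.11.15.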

Additional observations from a re-analysis of the deposited data

Results flagged for a closer look

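GFAP was 15.03 for female mice 4 and 5 on the control diet, where the high salt female pools had 77.6 and 72.0 and the other female control pool 69.4. It came from 14 recovered counts where the highest negative control had 10. The gap to the nearest female pool took up more of the range than Dixon's 95% critical value for 4 samples allows. It was 1 such group among 28 groups of 4 pools examined, where chance alone would give about 1.4.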

How the results depend on the processing

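No setting brought any of the 7 genes past an adjusted p of 0.05 for diet or for the interaction. With each pool left out in turn, the log2 diet difference ran from -0.18 to 0.63 for GFAP and from -0.04 to 0.52 for SEMAPHORIN. BDNF turned to -0.05 with a common floor and to -0.12 with background subtracted. The number of target genes passing for diet, 0 of 68, was 0 to 5 with single pools left out and 6 without both pools of male mice 1, 2 and 3, none of them among the 7. For sex, 1 of the 7 genes and 1 target gene passed with a pseudocount of 10, centred on the median, a common floor, genes above the floor only, a mean signal of 20 or more, or voom, and with single pools left out 0 to 2 genes and 0 to 7 target genes. Of the 10 pairs, 1 had a Pearson r past an adjusted p of 0.05. It includes P75 (with SOX10), whose separate clusters by sex leave the pair without a usable correlation, so none of the other pairs passed. The count was 0 as deviations from diet means, centred on the median, without both pools of female mice 1, 2 and 3, and without the 2 farthest pools, and 0 to 3 with single pools left out. The causes were not tested, and the last settings hold fewer pools. Pools with the same sex and mouse numbers did not deviate together (r = 0.16 and -0.31 in female and -0.52 and 0.11 in male pools), so the numbers do not pair them. With them as a block, 0 of the 7 genes and 0 target genes passed, and the log2 difference of GDNF was 1.17 (limma adjusted p = 0.765). Centring on the median moved the sex comparison to 52 of 68 genes lower in males, against 43 as deposited, with a median of -0.47 against -0.32. S100BETA and BDNF exceeded the highest negative control in 2 of 8 pools, and in the 2 deepest pools neither did.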
